A study of Mus musculus with 3 samples.

Results

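The genes described here are those named for the families of pre-mRNA splicing factors, measured in islet cells of NOD mice with and without a beta-cell deletion of the endoplasmic reticulum stress sensor IRE1α. With earlier results of these data known, they were taken by name, as every gene starting with 1 of 7 prefixes (Snrp, Lsm, Sf3, U2af, Prpf, Srsf or Hnrnp). This gave 69 of the 8193 genes in the authors' beta-cell table, 1 of 186 in the alpha-cell table (Sf3b6) and 1 of 231 in the delta-cell table (Lsm6). GENCODE M21 holds 82 protein-coding genes with these prefixes, and 69 (84.1%) were in the beta-cell table, against 35.9% of all protein-coding genes. That 35.9% is over genes of any expression level. Unlisted genes have no values here, so the share could not be set against genes of like level. The other genes with these prefixes were not analysed here. The name rule also takes in a few genes that act elsewhere: Lsm1, Lsm14a and Lsm14b are known for mRNA decay and translational repression in the cytoplasm, and Lsm10 for histone mRNA processing.

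All mice were NOD/ShiLtJ, a strain that develops autoimmune diabetes spontaneously, and were 5 weeks old. The control group was 1 mouse of the genotype IRE1αfl/fl, and the knockout group was 2 mice labelled IRE1αβ-/-. Tamoxifen (10 mg/ml, on 5 days) is given in the protocol of every sample, controls included. The promoter driving the Cre is not given in the sources used here. Islets were picked by hand, cultured overnight and dissociated, so the values follow that handling. Droplet libraries with unique molecular identifiers (UMIs) were made, in which 1 UMI stands for 1 captured transcript.

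Splicing removes introns from nuclear transcripts through the spliceosome, which is assembled anew on each intron from small nuclear ribonucleoproteins (snRNPs). Each snRNP carries a ring of Sm proteins, or of LSm proteins in the case of the U6 RNA, plus proteins of its own. SR proteins, rich in arginine and serine, and hnRNP proteins bind the transcript and shift the choice of splice sites. In the islet, many ion channel, exocytosis and hormone receptor transcripts are alternatively spliced, and these general factors are expressed in every cell. IRE1α itself cuts the Xbp1 mRNA in the cytoplasm by another route, which uses no spliceosome.

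The tables give, as means of UMIs over cells, only genes the authors listed as different, at an adjusted p of at most 0.0103 in each. Beta-cell values rest on 829 control cells and on 815 knockout cells in which the 2 mice are pooled. Alpha-cell values rest on 142, 304 and 177 cells, and delta-cell values on 101, 138 and 78. These cell numbers were inferred from the values themselves. All listed genes together had 31552 UMIs per cell in control beta cells and 24796 in knockout ones, a ratio of 0.786. Ern1, which encodes IRE1α, had 0.509 UMIs per cell in control and 0.742 in knockout beta cells, a ratio of 1.46 [1.29 to 1.66]. The median ratio of all listed genes was 1.45, so Ern1 lay near the background and was not lower in the knockout column, against the label. Whether the reads cover the deleted part is not given in the sources used here. Knockout below always means the columns so labelled. Summed transcripts of other cells' markers also moved between the columns: 4 of 6 alpha-cell markers were measured and went from 49.2 to 113.5 UMIs per cell, 2 of 3 markers of PP and epsilon cells from 21.7 to 107, 3 of 4 delta-cell markers from 39.6 to 64.6, 4 of 6 duct markers from 38.4 to 70.3 and 3 of 4 globin genes from 0.0639 to 22.6. Immune markers (3 of 5 measured) were at 0.586 and 0.415, endothelial (2 of 4) at 0.192 and 0.363, and mesenchymal (5 of 5, of which 2 were at 0 in the control) at 0.0241 and 0.167, while the only measured acinar marker of 6, Reg3b, was at 0 in the control and 0.114 in the knockout. Single genes did not all follow these sums: 2 of 3 measured immune markers were higher in the knockout although their sum fell. Of the endothelial markers, 1 of 2 was higher although their sum rose. The 6 markers of beta cells summed to 22059 and 13364. The part of these differences in the results below was not tested.

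In beta cells the splicing factor genes lay in a narrow range slightly above equality. Ratios divide the knockout's UMIs per cell by the control's, and brackets hold the exact 95% interval, which covers counting error only. In 65 of the 69 genes the knockout value was the higher one and in 4 the lower; among all listed genes it was the higher one in 95%, so this share is near the background. By a fold of at least 1.5, 1 gene was higher (1.45%, against 45.7% of all listed genes) and 0 were lower (against 2.47%). The median ratio was 1.22, and the central part of the 69 genes, between the quartiles, ran from 1.14 to 1.38, whereas all listed genes had a median of 1.45 and quartiles of 1.25 and 1.82. With 1 control column and 1 pooled knockout column there was no spread between mice to test against. The genes had been listed because they differed in these same cells, so their counts do not stand for the 82 genes with these names.

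**Figure D1:**
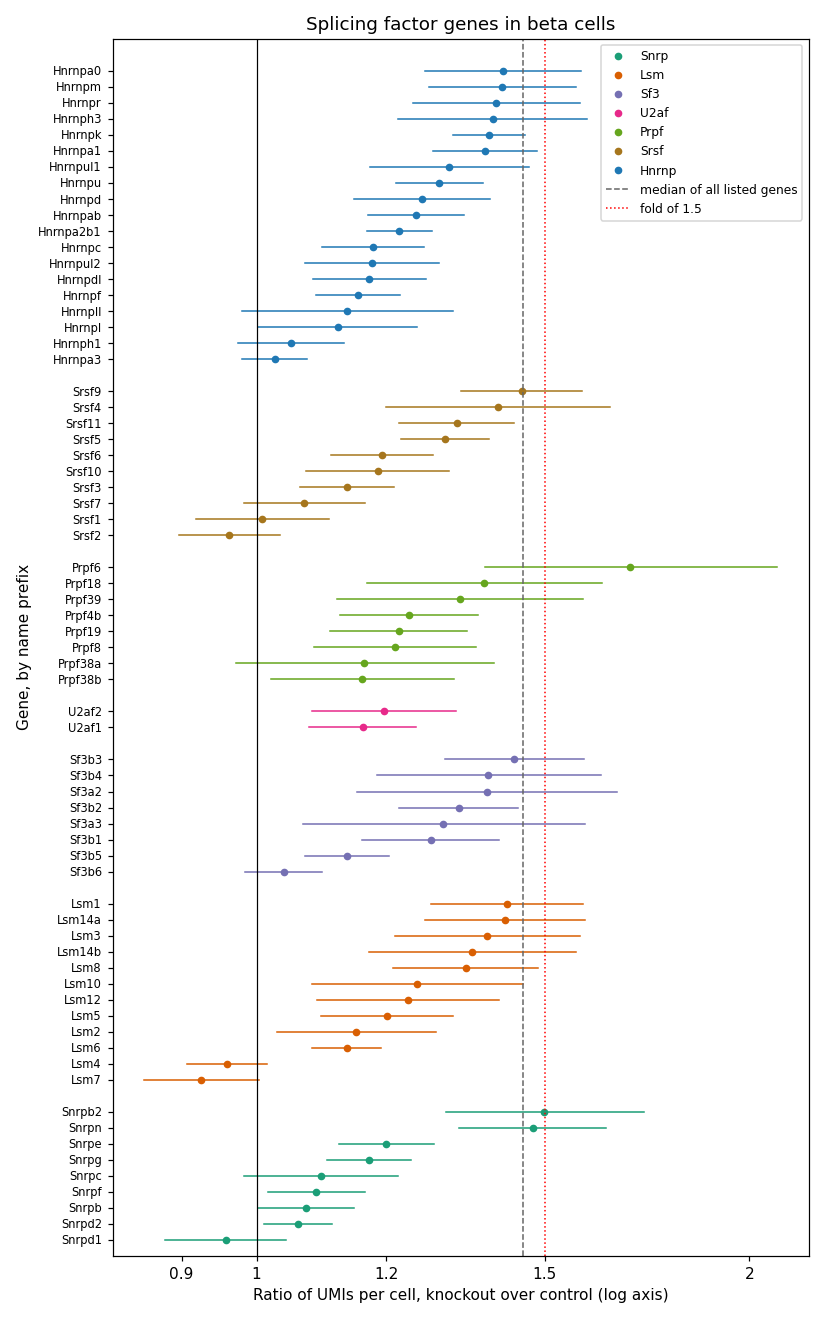
Ratio of UMIs per cell in knockout over control beta cells (log axis) for the splicing factor genes except 1 that is not reported here, grouped by name prefix; points are ratios and bars exact 95% counting intervals. Prpf6 at 1.69 is the only gene to the right of the dotted line at 1.5, and all genes shown but Prpf6, Snrpb2 and Snrpn lie left of the dashed line at 1.45, the median of all listed genes.

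Summed over the 69 genes, the control held 91.4 UMIs per cell and the knockout 108.1, a ratio of 1.18 [1.17 to 1.19]. As a share of all listed UMIs this was 0.290% in control and 0.436% in knockout cells. Once the insulin genes Ins1 and Ins2 and the amylin gene Iapp were taken out of the total, the shares were 0.962% and 0.945%. Against the summed UMIs of the listed genes other than these hormones, the summed splicing factor level therefore differed little between the columns. Genes that the authors did not list are not in this total. The split into higher and lower genes followed the scaling: scaling to the listed total left 69 of 69 higher (97.2% of all listed genes), 37 after scaling to that total without Ins1, Ins2 and Iapp (80.5%), and 3 after centring on the median of all listed genes (50.0%). By the fold of 1.5, scaling to the listed total put 42 of 69 higher, and 83.2% of all listed genes. With the hormones left out of the total the count was 0 (25.7% of all listed genes), and after centring it was also 0 (16.0%). A fold of 2 was reached by 0 of the 69 genes and by 19.8% of all listed genes.

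The sequence just upstream of the start site is shown for 2 genes, Prpf6, which had the highest ratio, and Lsm6, which was also in the delta-cell table. Capitals mark every match, on either strand, to 7 motifs. These were the TATA box with the letters TATAAA, the CCAAT box, the GC box with GGGCGG, the ETS core with CCGGAA and the E-box with CACGTG. The remaining motifs were the core ACGTG, which is contained in the E-box, and CCACG, which can overlap that core on the other strand. Both of these short cores occur in elements of the unfolded protein response. The sequences are from RefSeq on GRCm38.p6 (the same assembly as mm10) and end at the base before the RefSeq start site. That of Prpf6 lies inside the longer gene span of GENCODE. Prpf6 held matches to the ETS core, the GC box and both short cores, and Lsm6 held none of the 7 motifs.
Prpf6, chr2:181601069-181601318, plus strand: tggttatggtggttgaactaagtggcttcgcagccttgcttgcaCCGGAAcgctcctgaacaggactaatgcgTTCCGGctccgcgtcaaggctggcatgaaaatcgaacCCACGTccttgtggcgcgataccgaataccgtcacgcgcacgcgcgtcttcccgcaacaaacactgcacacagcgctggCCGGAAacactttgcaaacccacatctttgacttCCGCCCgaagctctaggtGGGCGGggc
Lsm6, chr8:78821153-78821402, minus strand: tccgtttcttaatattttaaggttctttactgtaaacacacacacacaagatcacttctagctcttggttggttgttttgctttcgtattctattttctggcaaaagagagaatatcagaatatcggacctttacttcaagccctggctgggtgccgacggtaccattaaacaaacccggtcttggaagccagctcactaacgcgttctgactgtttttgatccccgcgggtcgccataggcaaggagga

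Of the 69 genes, 57 had a promoter entry in RefSeq, with 77 windows of 250 bases upstream of a start. The GC box was in 64.9% of these windows, against 32.7% of all 32851 windows, and the ETS core in 39.0% against 12.0%. ACGTG was in 27.3% against 16.6%, CCACG in 44.2% against 28.3%, CCAAT in 46.8% against 33.8%, the E-box in 5.19% against 6.02% and the TATA box in 6.49% against 12.4%. The median GC content was 60.8% in the windows of these genes and 52.4% in all. The 17 genes with ACGTG had a median ratio of 1.26 and the 40 without it 1.22. For CCAAT the medians were 1.20 with it (29 genes) and 1.30 without (28), and for the TATA box 1.41 with it (5 genes) and 1.23 without (52). These differences were not tested. A match describes letters in the window and no binding.

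The Sm core, the ring shared by most snRNPs, had a median ratio of 1.09 over its 7 listed genes. After centring on genes of like level its median was -0.06 on the log2 scale, against -0.11 for the tri-snRNP genes and -0.10 for the U2af pair. Snrpd1 went from 1.35 to 1.30 UMIs per cell, at 0.957 [0.879 to 1.04], and was the only Sm gene with fewer UMIs in the knockout. Snrpd2 (4.03 to 4.27 UMIs per cell) was at 1.06 [1.01 to 1.11], Snrpb (2.02 to 2.17) at 1.07 [1.00 to 1.15] and Snrpf (1.93 to 2.10) at 1.09 [1.02 to 1.17]. Snrpg was at 1.17, and Snrpe (1.92 to 2.31) at 1.20 [1.12 to 1.28]. Of these, only Snrpe and Snrpg had intervals wholly above that of Snrpd1.

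Snrpn, which encodes the Sm protein found mainly in neural tissue, had the highest ratio of the Sm genes and the lowest control level. It went from 0.752 to 1.11 UMIs per cell, at 1.47 [1.33 to 1.64], whose interval lies above those of the 6 other Sm genes. Snrpn (chromosome 7, 59982495 to 60140219 in mm10) overlaps Snurf on the same strand, and reads of these genes cannot be told apart. Without Snrpn the Sm median was 1.08. Listed genes of lower control level had higher ratios in general, as given further on. After centring on genes of like level Snrpn was at 0.17 on the log2 scale, and the next highest Sm gene, Snrpe, at 0.08.

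The LSm ring that binds the U6 RNA had all of its listed genes, Lsm2 to Lsm8, spread from below to above equality. Lsm7 went from 1.54 to 1.42 UMIs per cell, at 0.925 [0.854 to 1.00], the lowest of all 69 genes. Lsm4 followed at 0.960 [0.907 to 1.02], with 3.06 and 2.94 UMIs per cell. Lsm6 (3.79 to 4.30) was at 1.14 [1.08 to 1.19], Lsm2 at 1.15 and Lsm5 at 1.20. Lsm8 (0.801 to 1.07 UMIs per cell) reached 1.34 [1.21 to 1.49] and Lsm3 (0.492 to 0.681) 1.38 [1.22 to 1.58]. The intervals of Lsm4 and Lsm7 do not meet those of Lsm3 and Lsm8. Proteins of this ring are thought to be present in equal number, which ratios of mRNA between the columns do not measure. The LSm genes outside the ring had a median of 1.35, against 1.15 for the ring, with Lsm12 at 1.24, Lsm10 at 1.25, Lsm14b at 1.35, Lsm14a (0.647 to 0.917 UMIs per cell) at 1.42 [1.27 to 1.59] and Lsm1 (0.715 to 1.02) at 1.42 [1.28 to 1.58]. After centring on genes of like level the medians were 0.03 outside the ring and -0.02 in it, on the log2 scale.

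Genes of the U2 snRNP, which recognises the branch point, had a median ratio of 1.33. Snrpb2, a U2-specific protein, went from 0.415 to 0.622 UMIs per cell. Its ratio was 1.499 [1.30 to 1.72], just under the fold of 1.5. Among the SF3b genes the large subunits Sf3b1 (0.914 to 1.17 UMIs per cell), Sf3b2 and Sf3b3 were at 1.28 [1.16 to 1.41], 1.33 [1.22 to 1.45] and 1.44 [1.30 to 1.58], and Sf3b4 (0.337 to 0.466) was at 1.39 [1.18 to 1.62]. Sf3b3 went from 0.856 to 1.23 UMIs per cell. The small subunits were lower: Sf3b5 (2.56 to 2.90 UMIs per cell) was at 1.14 [1.07 to 1.20] and Sf3b6 (3.19 to 3.31) at 1.04 [0.984 to 1.10]. The summed ratio was 1.35 [1.28 to 1.42] for Sf3b1 to Sf3b4 and 1.08 [1.04 to 1.13] for Sf3b5 and Sf3b6. The SF3a genes Sf3a2 (0.252 to 0.348) and Sf3a3 were at 1.38 [1.15 to 1.66] and 1.30. Listed genes of higher control level had lower ratios in general, as given further on. After centring on listed genes of the same level, the 4 larger subunits were above 0 (median 0.095 on the log2 scale) while Sf3b5 was at -0.0017 and Sf3b6 at -0.13.

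U2af1 and U2af2, the pair that reads the 3' splice site, had overlapping intervals at 1.16 [1.08 to 1.25] (1.57 to 1.82 UMIs per cell) and 1.20 [1.08 to 1.32] (0.855 to 1.02). Among factors tied to the U1 snRNP, which marks the 5′ splice site, Snrpc was at 1.10 [0.983 to 1.22] and Prpf39 at 1.33.

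The Prpf genes of the tri-snRNP and the catalytic steps had the highest gene of the whole set. Prpf6, a protein that bridges the parts of the tri-snRNP, went from 0.186 to 0.314 UMIs per cell, or from 154 to 256 UMIs in all, at 1.69 [1.38 to 2.08]. Its interval includes 1.45, the median of all listed genes, and of listed genes in its bin of control level 51.8% were also higher by 1.5-fold. Prpf6 (chromosome 2, 181591868 to 181655660) overlaps Zfp512b and Samd10 on the opposite strand, and whether the counting used strand is not given in the sources used here. Prpf8, the scaffold at the heart of the spliceosome, was at 1.21 [1.08 to 1.36], with 0.683 and 0.829 UMIs per cell. The kinase gene Prpf4b was at 1.24, Prpf38a (0.276 to 0.321) at 1.16 [0.971 to 1.40] and Prpf38b (0.542 to 0.628) at 1.16 [1.02 to 1.32]. Prpf19, the ubiquitin ligase of the activation complex, went from 0.938 to 1.15 UMIs per cell, at 1.22 [1.11 to 1.34], and Prpf18, which acts at the second step, from 0.306 to 0.422, at 1.38 [1.17 to 1.63]. Apart from Prpf6 the genes named in this group lay between 1.16 and 1.38, Prpf39 included.

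The 10 SR protein genes had a median ratio of 1.19 and covered most of the range. Srsf2 went from 1.91 to 1.84 UMIs per cell, at 0.963 [0.896 to 1.03], and Srsf1 from 1.09 to 1.10, at 1.01 [0.918 to 1.11]. Srsf7 (1.27 to 1.35) was at 1.07 [0.982 to 1.16] and Srsf3 (2.02 to 2.30) at 1.14 [1.06 to 1.21]. Srsf10 was at 1.19 and Srsf6 (1.72 to 2.05) at 1.19 [1.11 to 1.28]. The upper end was held by Srsf5 (2.21 to 2.88 UMIs per cell) at 1.30 [1.23 to 1.39], Srsf11 (1.28 to 1.69) at 1.32 [1.22 to 1.44], Srsf4 (0.337 to 0.472) at 1.40 [1.20 to 1.64] and Srsf9 (1.12 to 1.63) at 1.45 [1.33 to 1.58]. Srsf1, Srsf2 and Srsf7 thus had ratios whose intervals include 1, while the interval of Srsf9 lies above theirs. Srsf2 overlaps Mettl23 and Mfsd11 on the opposite strand.

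All 19 hnRNP genes were higher in the knockout column, with a median ratio of 1.25, and 0 of them reached a fold of 1.5. Among all listed genes 95% were higher and 45.7% reached that fold, so the direction is near the background. After centring on genes of like level, 12 of the 19 were above 0, as were 49.9% of all listed genes. The median of the 19 was then 0.05 on the log2 scale. Hnrnpk, which binds C-rich stretches, went from 3.20 to 4.43 UMIs per cell, at 1.39 [1.32 to 1.46]. Among the A/B type proteins, Hnrnpa1 went from 1.54 to 2.13, at 1.38 [1.28 to 1.48], Hnrnpa2b1 from 4.07 to 4.98, at 1.22 [1.17 to 1.28], and Hnrnpa3 from 4.50 to 4.62, at 1.03 [0.980 to 1.07]. The intervals of Hnrnpa1, Hnrnpa2b1 and Hnrnpa3 do not overlap before rounding, so their ratios differed by more than counting error. Spread between mice is not covered by these intervals. Those of Hnrnpa0 and of Hnrnpab [1.17 to 1.34] overlap the intervals of both Hnrnpa1 and Hnrnpa2b1. Hnrnpa1 and its relatives have processed copies in the genome, and the counting could split such reads. Hnrnpa0 (0.682 to 0.963 UMIs per cell) was at 1.41 [1.27 to 1.58], Hnrnpm (0.767 to 1.08) at 1.41 [1.27 to 1.57] and Hnrnpr (0.595 to 0.833) at 1.40 [1.25 to 1.58]. Hnrnpm overlaps March2 and Hnrnpul2 overlaps AC129217.1 on the same strand. Hnrnph3 was at 1.39. Hnrnpul1, Hnrnpu, the nuclear scaffold protein (2.25 to 2.91 UMIs per cell), Hnrnpd and Hnrnpab were at 1.31, 1.29 [1.22 to 1.37], 1.26 and 1.25. Lower values were those of Hnrnpc (1.18), Hnrnpul2 (1.18), Hnrnpdl (1.17), Hnrnpf (1.15), Hnrnpll (1.14) and Hnrnpl (1.12 [1.00 to 1.25], with 0.723 to 0.810 UMIs per cell), and the lowest but for Hnrnpa3 was Hnrnph1 (1.68 to 1.76) at 1.05 [0.975 to 1.13].

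The ratio fell with the control level in these genes as it did in the table as a whole. Across the 69 genes Spearman's rho between the log2 ratio and the control level was -0.55, and across all 7871 listed protein-coding genes -0.70; the points share the same 2 columns and the control value enters both axes, so this is a description. Whether a gene was listed also depends on its counts, and the part of that in this relation was not tested. In 10 bins of control level, the highest bin (from 1.75 UMIs per cell) held 18 of the genes, with a median ratio of 1.14 and the same median of 1.14 over all 820 listed genes in it. The next bin held 19, at 1.19 against 1.22 for all, and the one below it 16, at 1.37 against 1.31. After subtracting the median of each bin, 34 of the 69 genes were above 0 and 35 below, with a median of -0.0013 on the log2 scale; 49.9% of all listed genes were above 0. A fold of 1.5 above the bin median was reached by 0 of the 69 and by 7.46% of all listed genes. In bins by the mean of the columns, chosen after seeing the data, 29 of 69 (50.0% of all listed genes) were above 0 and 0 (9.22%) reached that fold. Set against listed genes of like level, the splicing factor genes thus had a median ratio close to that of those genes. The quartiles after this centring lay 0.23 apart on the log2 scale, against 0.32 for all listed genes in the same bins. Weighted by the bins, 19.1% of listed genes of the same level were higher by 1.5-fold, next to the 1.45% of these genes.

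**Figure D2:**
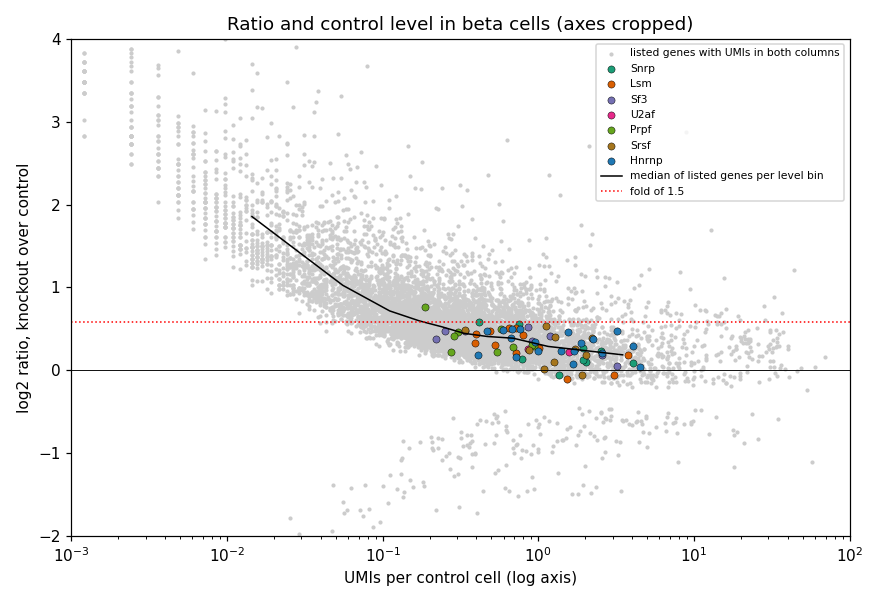
The log2 ratio of knockout over control against UMIs per control cell (log axis) in beta cells, for listed genes in grey and the 69 splicing factor genes in colour by prefix; the black line joins the medians of listed genes per bin of level. The coloured points follow the black line, and Prpf6 is the only one above the dotted line at a fold of 1.5.

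The authors' list had few genes with ratios just below 0.9. Of the 1438 listed genes with at least 1 UMI per control cell, 161 had a ratio from 0.9 to 1.0, 13 from 0.8 to 0.9, 9 from 0.7 to 0.8 and 43 from 0.6 to 0.7. Lsm7, Snrpd1, Lsm4 and Srsf2, the 4 genes with ratios below 1, were all in the window from 0.9 to 1.0, above this thinly filled stretch. The ratio of the listed totals, 0.786, lies inside the stretch. In the authors' deposited table these 4 genes had adjusted p-values of 0.00239, 0.00700, 5.22e-05 and 0.000360, and Srsf1, at a ratio of 1.01, had 0.00473. These small p-values thus stood beside UMI ratios close to 1, and neither the test nor the scaling behind them is given in the sources used here. Scaled to the listed total, the ratio of each of the 4 genes was above 1.

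Genes with short coding sequences had the lower ratios among these factors. The 19 genes with a coding sequence under 600 bp, among them 5 of the 7 Sm genes and the whole LSm ring, had a median ratio of 1.14, and the 50 longer ones 1.29. Over all listed protein-coding genes the medians were 1.32 and 1.46. After centring within level bins the medians were -0.06 and 0.02 on the log2 scale for the splicing factors and 0.03 and -0.0032 for all genes, so for the short genes the order against the longer ones differed in sign; this difference was not tested. In GENCODE, 44.9% of these genes have an annotated transcript that is a target of nonsense-mediated decay, against 28.7% of all listed protein-coding genes, and 73.9% against 61.8% have one with a retained intron. Such transcripts are a known means by which many SR and hnRNP proteins limit their own levels, and a mean UMI per gene does not tell them from the coding form.

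Other genes of the splicing machinery, from lists of 158 genes, had more extreme ratios, from 0.869 to 2.78. Their quartiles lay 0.27 apart on the log2 scale, against 0.28 for the 69 genes. Zrsr1, the highest, had 0.0676 UMIs per control cell, in a bin of level with 0 of the 69 genes. In that bin 93.9% of listed genes passed the fold of 1.5. Relative to the median of that bin the log2 ratio of Zrsr1 was 0.45. Of the 158, 115 were measured and 111 were higher (96.5%, near the 95% of all listed genes). Of the 115, 15 passed the fold of 1.5 (13%, below the 45.7% of all listed genes), with a median ratio of 1.27. The helicases that drive spliceosome remodelling had a median of 1.29 over 11 genes, with Ddx5 (7.07 to 10.3 UMIs per cell) at 1.46 [1.41 to 1.51] and Ddx23, of the tri-snRNP, at 1.87 [1.47 to 2.39]; Ddx17, a close relative of Ddx5, was at 1.04 [0.969 to 1.12] and Ddx39b at 1.08. Other snRNP proteins were at 1.22 (9 genes, from Snrnp70 of the U1 snRNP at 1.07 and Snrnp40 at 1.15 to Eftud2 at 1.34 and Ppih at 1.51), U2-associated proteins at 1.27 (13 genes, from Phf5a at 1.09 and Sf1 at 1.10 to Dnajc8 at 1.46 and Zrsr1 at 2.78) and the Prp19 complex and catalytic step factors at 1.37 (20 genes, from Bud31 at 0.938 and Ik at 1.07 to Snw1 at 1.60 and Cwc27 at 1.68). Exon junction and SR-related genes were at 1.22 over 22 genes, 0 of which passed the fold, from Luc7l2 at 0.984 and Eif4a3 at 1.05 to Luc7l3 at 1.41 and Tra2a at 1.46. FET and other RNA-binding genes were at 1.22 over 12 genes, 0 of which passed, from the cold-shock protein gene Rbm3 (5.73 to 4.98 UMIs per cell) at 0.869 [0.833 to 0.906] and Taf15 at 1.02 to Nono at 1.46 and Cirbp, another cold-shock gene, at 1.49 [1.39 to 1.59].

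The kinases that phosphorylate SR proteins and the importer Tnpo3 had the highest list median, 1.42 over 6 genes, from Clk4 at 1.21 and Clk3 at 1.35 to Srpk1 at 1.60 [1.42 to 1.80] and Srpk2 at 1.51 [1.36 to 1.69]. Genes for snRNP assembly with the SMN complex were at 1.27 over 7, from Strap at 1.13 and Wdr77 at 1.25 to Gemin7 at 1.62 [1.48 to 1.76] and Gemin6 at 2.16 [1.82 to 2.58]. The list of tissue splicing regulators, which also holds widely expressed genes such as Ptbp1, had the widest range on the log scale. In that list of 15 measured genes, 5 passed the fold: Nova2 at 2.62 [1.84 to 3.79] and Celf4 (0.577 to 1.32 UMIs per cell) at 2.28 [2.05 to 2.55], both known from neurons, Ptbp2 at 1.74 [1.39 to 2.19], Esrp2 at 1.62 [1.07 to 2.48] and Mbnl1 at 1.51 (the last 3 were named after their values were seen). This was 33.3% of the list, against 45.7% of all listed genes. Nova2 and Esrp2 had control levels at which 93.9% of listed genes passed the fold. Relative to the median of genes of like level, the log2 ratio was 0.80 for Celf4, 0.37 for Nova2, 0.21 for Ptbp2, 0.19 for Mbnl1 and -0.33 for Esrp2, and the list's median was -0.03. Ptbp1, the widely expressed relative of Ptbp2, was at 0.988 [0.906 to 1.08] and Tia1 at 1.04.

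**Figure D3:**
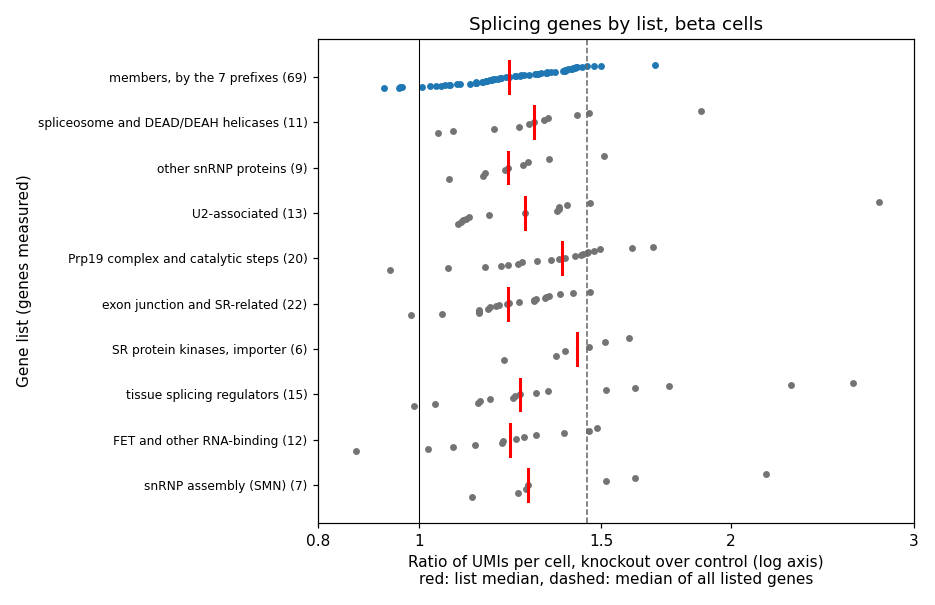
Ratio of UMIs per cell in knockout over control beta cells (log axis) for the 69 splicing factor genes and for 9 other lists of splicing genes; points are genes, red bars list medians and the dashed line the median of all listed genes at 1.45. All 10 medians lie left of the dashed line, from 1.22 to 1.42, and the list of tissue splicing regulators spreads from 0.988 to 2.62.

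In alpha cells Sf3b6 was the only gene with these names in the table, and its mean over the knockout mice was below the control. Sf3b6 had 2.29 UMIs per cell in the control, 1.59 in the first knockout column and 2.11 in the second, a mean of 1.85 ± 0.371 (SD, n = 2). Both knockout values were below the control, and the counting interval of the second (1.90 to 2.34) overlapped that of the control (2.05 to 2.55). The ratio of the means was 0.809; 57.0% of the table's genes were below 1, and 51.1% had both mice below the control. The quasi-likelihood test of edgeR, run on UMIs recovered from the means, gave Sf3b6 an adjusted p of 0.479 (Benjamini-Hochberg), so the difference did not exceed the spread the test allowed for; it called 2.15% of the genes. With 1 control mouse that test takes the control to vary like the knockout mice. In beta cells the same gene had 3.19 and 3.31 UMIs per cell.

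In delta cells Lsm6 was the only such gene and was higher in both knockout mice. Lsm6 had 2.56 UMIs per cell in the control, 3.43 in the first knockout column and 3.10 in the second, a mean of 3.27 ± 0.230 (SD, n = 2) and a ratio of 1.27. The interval of the second knockout column (2.72 to 3.52) overlapped that of the control (2.26 to 2.90). Among the delta-cell genes 81.4% had a ratio above 1 and 71.4% had both mice above the control. The same edgeR test gave Lsm6 an adjusted p of 0.379 and called 21.6% of the genes. In beta cells Lsm6 went from 3.79 to 4.30 UMIs per cell. Neither gene reached a fold of 1.5 in alpha or delta cells (40.9% and 57.1% of the genes in those tables did). Lsm6 was at 1.64 after scaling to the listed total and at 0.953 after centring on the median of the delta-cell genes, so its direction depended on the scaling. Sf3b6 was at 0.991 after centring in the same way.

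**Figure D4:**
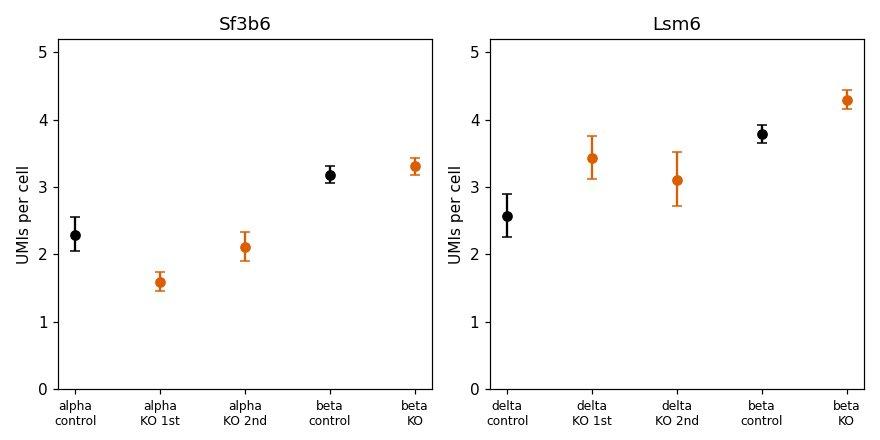
UMIs per cell of Sf3b6 in alpha cells and of Lsm6 in delta cells (control and each knockout mouse), beside the same gene in beta cells (control and pooled knockout, KO); bars are exact 95% counting intervals. Sf3b6 sits at 1.59 and 2.11 in the knockout alpha cells against 2.29 in the control, and Lsm6 at 3.43 and 3.10 in the knockout delta cells against 2.56.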

How the data were processed

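Values are the authors' mean UMIs per cell for one cell type, a signal with no scaling for depth, as deposited. Per the submitters' processing notes, Cell Ranger 3.0.0 and the build mm10 were used; how cells were filtered and typed, how doublets and free RNA were treated, and which test gave the p-values in the authors' deposited tables, is not given in the sources used here. In the alpha-cell table the header names sit 1 column off their values. The number of cells in each column was inferred, as the first number tried that turned nearly all nonzero values into whole UMIs. Each value times that number gave whole UMIs within 0.001 (100% of values, 99.99% in control beta cells). This share follows from the choice and is no separate check of the cell numbers, on which UMI counts and intervals rest. Knockout columns of the alpha and delta tables name the group and a number, and were not matched to particular mice; nothing else says how the animals were related.

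From these, ratios, log2 ratios (no pseudocount), exact counting intervals (Clopper-Pearson for ratios, Poisson for levels, 95%), and counts by a fold of 1.5 were computed in Python 3.11.15 with scipy 1.17.1. A group at 0 was set to 3 UMIs over its cells. Ratios of alpha and delta cells use the unweighted mean of 2 knockout mice. EdgeR 4.0.16 (quasi-likelihood, log cell number as offset, 1 residual degree of freedom, all listed genes) was run on genes preselected on the same cells. It was also tried on simulated data, in which the planted changes were much larger than those of Sf3b6 and Lsm6. That trial therefore does not bear on differences of their size. Gene structures are from GENCODE M21, which held all 69 identifiers. Of the 69 genes, 1 is counted in the summaries but is not reported here. Every other gene with the prefixes could be named; full values went to the 3 highest and lowest of each prefix, fixed anchor genes and all genes in alpha or delta cells, and of other lists the 2 highest and 2 lowest. Members and lists were chosen with earlier results of these data known. Alternatives were a pseudocount, a filter on low values (0.1 UMIs per cell), other scalings, centring in 10 bins of level, a fold of 2, other gene sets, leaving out each knockout mouse and, added after seeing the data, bins by the mean of the columns and a mean weighted by cells.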

Additional observations from a re-analysis of the deposited data

Results flagged for a closer look

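Sf3b6 lay on opposite sides of the control in 2 cell types. In alpha cells both knockout mice were below the control, at a ratio of 0.809 for their mean, while in beta cells the pooled knockout was at 1.04 [0.984 to 1.10]. The difference between the cell types was not tested, and the beta-cell interval includes 1. The sides also depended on the scaling: in beta cells the ratio was 0.863 with Ins1, Ins2 and Iapp left out of the scaling total, and the log2 ratio was -0.49 after centring on all listed genes. In alpha cells the ratio was 0.991 after centring. Scaled to the listed total, the ratio was 1.32 in beta cells and 0.912 in alpha cells, still on opposite sides.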

How the results depend on the processing

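In beta cells the results followed the scaling. The count at a fold of 1.5 (1 gene) was 42 after scaling to the listed total and 0 with a fold of 2, with centring on all listed genes, with scaling without Ins1, Ins2 and Iapp, and with centring in bins of control level or of mean level. The count of higher genes (65) was 3 after centring on all genes, 37 after scaling without the hormones, 34 in bins of control level and 29 in bins of mean level. The median log2 ratio (0.29) was -0.25, 0.64 (listed total), 0.022, -0.0013 and -0.045 under these settings, and 7 prefixes with a median above 0 became 0, 4 (without the hormones) and 3 (control bins). A pseudocount and the filter on low values moved none of these 4 results beyond its limit. Adding Snrnp genes and leaving out Lsm genes gave 71 and 55 higher genes, 1 gene at the fold and a median of 0.29 each; neither was run for the prefixes. Other splicing genes past the fold (15) were 3 after centring and 4 at a fold of 2. Sf3b6 in alpha cells ranged from 0.694 to 0.923 with 1 knockout mouse left out and was 0.991 after centring; Lsm6 in delta cells ranged from 1.21 to 1.34, and was 1.64 after scaling to the listed total and 0.953 after centring. No paired analysis was possible because the labels give no shared replicate numbers.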
